A study of Mus musculus with 8 samples.

Results

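The genes described here encode insulin-like growth factor 1 (Igf1), its receptor (Igf1r) and the insulin-like growth factor binding proteins Igfbp1 to Igfbp7. They were chosen by name, with earlier results of these data known, as array rows whose platform annotation gives a single gene symbol. Each of the 9 genes had exactly 1 such row, of 19310 genes with such a row in all. The tissue was epididymal white fat, a visceral depot, of male C57BL/6 mice aged 12 to 15 weeks. One group of 4 samples carries the label Rev-erb alpha KO, a knockout of the nuclear receptor encoded by Nr1d1, and the other group of 4 is labelled WT. All 8 were kept on a standard diet in cycles of 12 h light and 12 h dark and were sampled at Zeitgeber time 10 (hours after lights on). The labels do not say whether the knockout was limited to a tissue, nor whether each numbered replicate was a separate mouse, so each p-value reflects variation among these samples, which may be partly technical. RNA was measured on whole-transcript Affymetrix arrays, and every value below is a log2 expression value of 1 array row. The study's title concerns FGF21, a hormone that acts on fat.

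IGF1 is a peptide hormone related to insulin that the liver secretes into blood and that fat and other tissues make for local use, largely under the control of growth hormone through its receptor and the transcription factor STAT5. It acts through the IGF1 receptor, a tyrosine kinase that passes its signal to insulin receptor substrates and PI3 kinase. The binding proteins hold IGF1 and IGF2 outside the cell, lengthen their stay in blood and tissue, and limit or direct their access to the receptor. Proteases such as PAPP-A cut binding proteins and free the ligand, and stanniocalcins inhibit PAPP-A. Rev-erb alpha represses transcription as part of the circadian clock, and it binds DNA elements built around the letters AGGTCA, preferably behind an A and T rich stretch.

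The DNA before the start sites of Igf1, Igfbp2 and Igfbp3 is shown because these members passed the test below. That of Igf1r, which did not pass, is shown because it holds the letters AGGTCA, as does that of Igf1. In neither stretch does a T stand directly before these letters. Each sequence is the 250 bases before a RefSeq transcript start, 5′ to 3′ on the strand of the gene, in build GRCm38.p6, with matches to the searched motifs in capitals. They lie at chr10:87860861-87861110 on the plus strand for Igf1, chr7:67952007-67952256 on the plus strand for Igf1r, chr1:72824230-72824479 on the plus strand for Igfbp2 and chr11:7213924-7214173 on the minus strand for Igfbp3.
Igf1: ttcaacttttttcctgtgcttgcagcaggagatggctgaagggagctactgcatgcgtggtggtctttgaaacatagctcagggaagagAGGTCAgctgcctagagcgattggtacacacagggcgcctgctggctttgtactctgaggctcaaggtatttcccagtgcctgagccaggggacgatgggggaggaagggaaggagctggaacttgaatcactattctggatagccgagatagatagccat
Igf1r: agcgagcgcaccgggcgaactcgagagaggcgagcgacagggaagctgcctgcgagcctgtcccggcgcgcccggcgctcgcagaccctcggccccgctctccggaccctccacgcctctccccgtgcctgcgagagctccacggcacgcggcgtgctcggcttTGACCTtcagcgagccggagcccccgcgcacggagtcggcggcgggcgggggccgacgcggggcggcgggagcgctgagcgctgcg
Igfbp2: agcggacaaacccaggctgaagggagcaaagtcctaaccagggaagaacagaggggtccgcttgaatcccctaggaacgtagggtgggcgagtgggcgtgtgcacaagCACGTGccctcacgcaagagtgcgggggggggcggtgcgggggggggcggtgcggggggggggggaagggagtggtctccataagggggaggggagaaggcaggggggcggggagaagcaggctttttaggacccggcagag
Igfbp3: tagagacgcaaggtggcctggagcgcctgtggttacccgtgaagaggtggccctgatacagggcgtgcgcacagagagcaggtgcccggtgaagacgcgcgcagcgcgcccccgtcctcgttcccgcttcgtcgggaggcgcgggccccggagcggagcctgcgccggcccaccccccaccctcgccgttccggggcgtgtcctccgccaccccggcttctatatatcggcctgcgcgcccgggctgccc

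All 9 members matched the promoter table, with 10 entries since Igfbp2 has 2 starts there. The letters AGGTCA, searched like every motif on both strands, begin 161 bases before the Igf1 start and, on the opposite strand as TGACCT, 86 bases before the Igf1r start, and occur in none of the other 8 entries. Of all 32851 promoter entries of this length, 14% hold them. The longer form TAGGTCA, which contains AGGTCA, is in none of the 10 entries and in 2.23% of all entries. The E-box CACGTG, an element that the clock activators bind, begins 142 bases before the printed Igfbp2 start (6.02% of all entries), and the D-box TTATGTAA is in none of the 10 (0.819% of all). TATAAA begins 28 bases before the start of Igfbp4 and, on the opposite strand, 148 bases before that of Igfbp6 (12.4% of all), and the STAT5 element TTCNNNGAA is in none of the 10 (7.02% of all). These matches describe letters in a short window and say nothing of binding, and the array rows carry no genome build of their own.

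Over all rows, array medians lay between 5.90 and 5.95 log2 and lower quartiles between 4.46 and 4.51. Correlations over all rows, in which genes and not samples are the points, were 0.993 to 0.996 between KO-labelled arrays, 0.994 to 0.996 between WT arrays and 0.989 to 0.994 across the groups. The row of Nr1d1, the targeted gene, read 9.56, 9.28, 8.90 and 8.80 in the Rev-erb alpha KO-labelled arrays, against 9.47, 9.11, 9.18 and 9.83 in the WT arrays, a difference of −0.26 log2 that did not pass (limma adjusted p = 0.479). Which part of the transcript that row reads is not given in the sources used here, so it cannot check the labels, and the arrays are called KO-labelled throughout. Arntl, a clock gene that Rev-erb alpha represses, was 3.61-fold higher in the KO-labelled arrays (limma adjusted p = 3.20e-05). A principal component with 14.7% of the variance set KO-labelled arrays 1 and 2 (12.8 and 10.7) apart from arrays 3 and 4 (−11.4 and −5.91), with the WT arrays between −9.93 and 2.42, so values without either pair are given beside the members that passed. Adipocyte marker rows were bright, with the 11 measured genes of that list between 9.28 and 12.9 log2, and the 8 measured markers of epididymal epithelium lay between 3.13 and 5.20.

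Within this system the ligand gene Igf1 fell, the binding protein gene Igfbp2 fell and the binding protein gene Igfbp3 rose in the KO-labelled tissue, while the receptor gene Igf1r did not pass. Thus 3 of the 9 members passed, 1 higher and 2 lower, at a limma adjusted p under 0.05 over the 20748 rows tested, of which 7.40% passed (3.81% higher and 3.59% lower). The members were chosen with earlier results of these data known, so these shares serve as description only. The members' median difference was −0.04 log2, beside −0.01 over all rows tested. In 5 of the 9 members the 2 groups did not overlap, 3 with the KO-labelled arrays above and 2 with them below, beside 15.3% of all rows (7.18% above and 8.16% below). In tissue RNA, fewer cells of a type and less RNA per cell cannot be told apart.

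**Figure D1:**
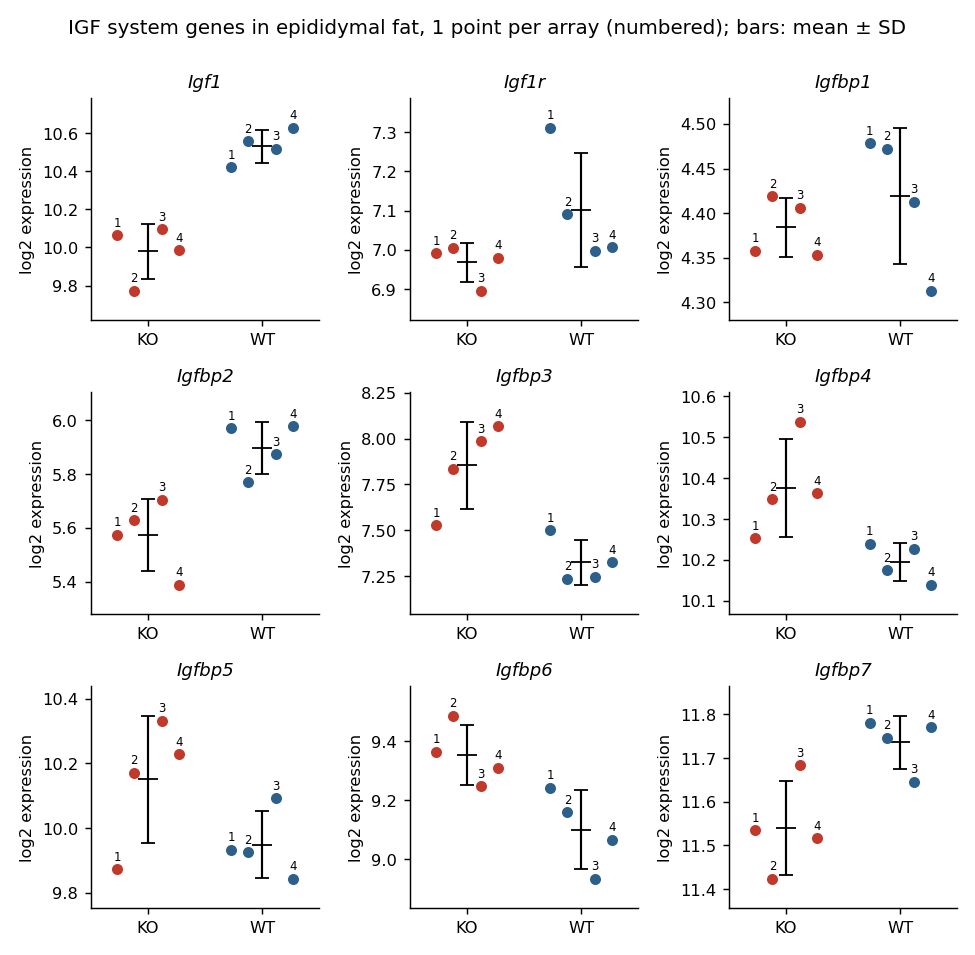
Log2 expression (vertical axis, its own scale in each panel) of the 9 members in the 4 KO-labelled arrays (left, red) and the 4 WT arrays (right, blue), with each point numbered by its replicate and bars for the mean ± SD. Igf1 separates the groups by the widest gap, 0.32 log2, and Igfbp1, Igfbp5, Igf1r and Igfbp7 overlap.

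Igf1, the ligand, read 10.07, 9.77, 10.10 and 9.99 log2 in the KO-labelled arrays, against 10.42, 10.56, 10.52 and 10.63 in the WT arrays. The highest KO-labelled array lay 0.32 below the lowest WT array, so the groups did not overlap. The means were 9.98 ± 0.15 in KO-labelled and 10.53 ± 0.09 in WT tissue (SD, n = 4 arrays each), a difference of −0.55 log2 (SE 0.078, limma adjusted p = 0.00254), which is 31.7% lower on the linear scale. The exact permutation test of the 8 values, two-sided, gave p = 0.0286, the smallest that 4 against 4 arrays allow. The decrease was −0.49 without KO-labelled arrays 1 and 2 (limma adjusted p = 0.00691) and −0.61 without arrays 3 and 4 (0.0144).

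Igf1r, the receptor through which IGF1 signals, read 6.99, 7.01, 6.90 and 6.98 in the KO-labelled arrays and 7.31, 7.09, 7.00 and 7.01 in the WT arrays. WT array 1 stood above all other arrays, and the other 3 WT arrays lay near or among the KO-labelled ones. The difference of −0.13 did not pass (SE 0.073, 95% interval −0.30 to 0.03, limma adjusted p = 0.329).

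**Figure D2:**
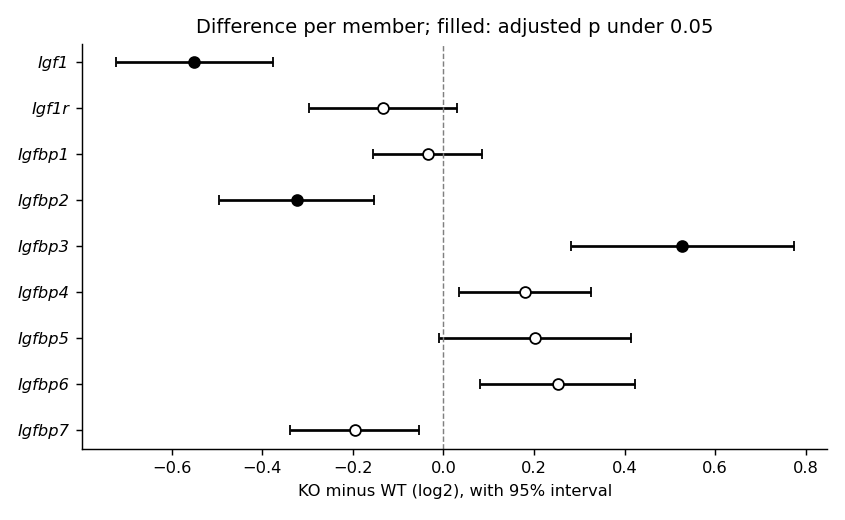
Difference of KO-labelled minus WT means (horizontal axis, log2) for each member, with the 95% interval of the limma fit, not adjusted for multiple testing, and filled points for an adjusted p under 0.05. Igf1 (−0.55), Igfbp2 (−0.32) and Igfbp3 (0.53) are filled, and the intervals of Igf1r, Igfbp1 and Igfbp5 cross 0.

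Among the binding proteins, Igfbp3 showed the largest difference. Its product is the main carrier of IGF1 in blood, where it forms a complex with the acid-labile subunit. Igfbp3 read 7.53, 7.84, 7.99 and 8.07 in the KO-labelled arrays, against 7.50, 7.24, 7.25 and 7.32 in the WT arrays. KO-labelled array 1 and WT array 1 were only 0.03 apart, and the other 3 KO-labelled arrays were clearly above every WT array. The means were 7.85 ± 0.24 and 7.33 ± 0.12 in KO-labelled and WT tissue (SD, n = 4 each), a 1.44-fold difference (0.53 log2, SE 0.11, limma adjusted p = 0.0174, exact permutation p = 0.0286). The increase was 0.70 without KO-labelled arrays 1 and 2 (limma adjusted p = 0.00261) but 0.36 and no longer called without arrays 3 and 4 (0.130), and the call was also lost without KO-labelled array 4 (0.0520), WT array 2 (0.0535) or WT array 3 (0.0559).

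Igfbp2, which encodes a binding protein that preadipocytes secrete, changed in the opposite direction. Its row read 5.57, 5.63, 5.70 and 5.39 in the KO-labelled arrays, against 5.97, 5.77, 5.87 and 5.98 in the WT arrays, with a gap of 0.06 between the groups. The KO-labelled values lay below the array medians, 5.90 to 5.95 log2, and the WT values close to them. The means were 5.57 ± 0.13 and 5.90 ± 0.10 (SD, n = 4 each), a difference of −0.32 log2 (SE 0.077, limma adjusted p = 0.0305, exact permutation p = 0.0286) or 20.1% lower. This is the member whose call was lost most often: without KO-labelled array 1 or 4 or WT array 1, 3 or 4 the limma adjusted p lay between 0.0596 and 0.0867, and it was 0.0732 without KO-labelled arrays 1 and 2 and 0.0849 without arrays 3 and 4. Over all alternatives, also those that kept the call, the decrease stayed between −0.37 and −0.26.

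Igfbp4 and Igfbp6 did not pass, although in both every KO-labelled array lay above every WT array. The exact permutation test gave p = 0.0286 for each, as it does for any row whose groups do not overlap. Igfbp4, a binding protein that inhibits IGF action until PAPP-A cuts it, read 10.25, 10.35, 10.54 and 10.36 in the KO-labelled arrays, against 10.24, 10.18, 10.23 and 10.14 in the WT arrays (0.18 log2, SE 0.066, limma adjusted p = 0.135). Igfbp6, which prefers IGF2 over IGF1, read 9.36, 9.49, 9.25 and 9.31, against 9.24, 9.16, 8.93 and 9.06 in WT (0.25 log2, SE 0.078, limma adjusted p = 0.0789). Their gaps between the groups, 0.01 and 0.004 log2, were far smaller than the SD within either group.

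Igfbp5, Igfbp7 and Igfbp1 overlapped between the groups and did not pass. Igfbp5, a binding protein that attaches to extracellular matrix, read 9.87, 10.17, 10.33 and 10.23 in the KO-labelled arrays, against 9.93, 9.93, 10.09 and 9.84 in the WT arrays (0.20 log2, SE 0.095, limma adjusted p = 0.250). KO-labelled array 1 lay among the WT arrays, as for Igfbp3 it lay next to them, and without it the Igfbp5 difference was 0.30 and was called (limma adjusted p = 0.0434). Igfbp7, a secreted relative with low affinity for IGFs that endothelium makes in quantity, read 11.53, 11.42, 11.68 and 11.52, against 11.78, 11.75, 11.65 and 11.77 in WT (−0.20 log2, SE 0.065, limma adjusted p = 0.0985). It was called without KO-labelled array 3 (limma adjusted p = 0.0491) and, with all arrays, under quantile normalization (0.0473). Igfbp1, a binding protein of the liver that insulin represses, read 4.35 to 4.42 in the KO-labelled arrays and 4.31 to 4.48 in the WT arrays, at or below the lower quartile of all rows (−0.04 log2, 95% interval −0.16 to 0.09, limma adjusted p = 0.773).

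Members that lie beside each other did not pass together. Igfbp3 and Igfbp1 are neighbours on chromosome 11 and Igfbp2 and Igfbp5 on chromosome 1, with 0 protein-coding genes between them in the mouse gene table. In the first pair Igfbp3 rose and Igfbp1 was at −0.04, and in the second Igfbp2 fell and Igfbp5 was at 0.20. The Igfbp1 row was dim, at or below the lower quartile of all rows, so its value may not show whether its RNA changed.

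The rows most like each member that passed were found by Pearson correlation over the 8 arrays, among rows of other genes brighter than the median row, as a description of arrays that also differ in group. For Igf1 these were Fam117a (r = 0.986), Stk39 (0.978) and Cnot3 (0.976), of which Fam117a and Stk39 fell by 0.35 log2 each (limma adjusted p = 0.00468 and 0.00869). Cnot3, at −0.13 log2, did not pass (limma adjusted p = 0.136). For Igfbp3 they were Ttc28 (r = 0.991), Wbp1l (0.989) and Magi1 (0.981). Ttc28 and Magi1 were higher by 0.39 and 0.26 log2 (limma adjusted p = 0.0273 and 0.0451), and Wbp1l did not pass (0.238). For Igfbp2 they were Arpin (r = 0.980), Etv6 (0.970) and Mief1 (0.964), none of which passed (limma adjusted p = 0.285, 0.0807 and 0.232).

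Genes that act on the binding proteins and beside the ligand came from lists of textbook partners, chosen with earlier results of these data known. Of 6 measured genes for other IGF ligands, receptors and carriers, only Igf2, the fetal growth factor, passed, beside 7.40% of all rows tested. It was lower (limma adjusted p = 0.0342). It read 5.99, 5.92, 6.11 and 6.08 in the KO-labelled arrays, against 6.40, 6.34, 6.15 and 6.31 in WT (−0.28 log2, SE 0.068), so both ligand genes fell. The KO-labelled arrays were all lower, but the call was lost without KO-labelled array 1, 2 or 4 or WT array 1, 2 or 4 (limma adjusted p up to 0.0870), without KO-labelled arrays 1 and 2 (0.158) or 3 and 4 (0.0594) and with the replicate number as a block (0.0883). Igf2r, the receptor that clears IGF2, was at 0.26 (adjusted p = 0.0626), Insr, the insulin receptor, at −0.20 (0.257) and its relative Insrr at −0.08 (0.457). The list's median was −0.06 log2.

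**Figure D3:**
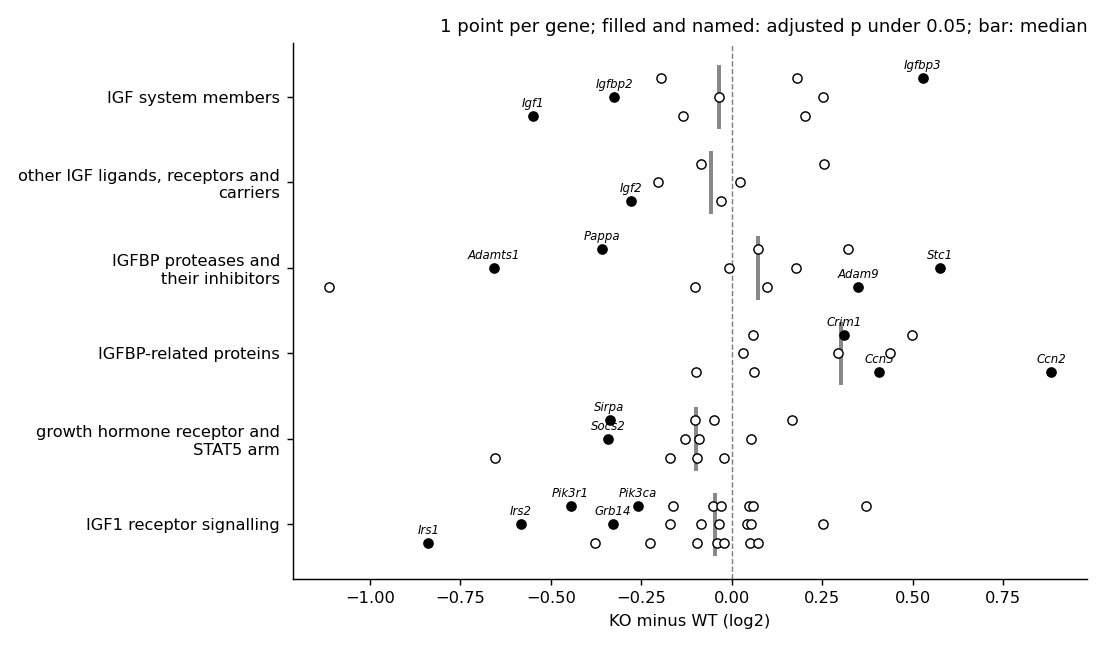
Difference of KO-labelled minus WT means (horizontal axis, log2), with 1 point per gene, for the 9 members and 5 lists of partner genes, filled and named where the adjusted p was under 0.05, and with a bar at each list's median. Filled points of the IGF1 receptor signalling list are all left of 0 and those of the IGFBP-related list all right of 0.

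Of 11 measured genes for proteases that cut binding proteins and for their inhibitors, 4 passed (2 higher and 2 lower, median 0.07 log2). Of all rows tested 7.40% passed, 3.81% higher and 3.59% lower. Pappa, which encodes PAPP-A, was lower, reading 5.07, 5.20, 4.78 and 5.02 in the KO-labelled arrays, against 5.31, 5.46, 5.33 and 5.41 in WT (−0.36 log2, SE 0.085, limma adjusted p = 0.0302). Every Pappa value lay below the array medians, 5.90 to 5.95 log2. Stc1, which encodes the PAPP-A inhibitor stanniocalcin 1, was higher, reading 6.37, 6.00, 6.64 and 6.64, against 5.82, 5.87, 5.79 and 5.85 in WT (0.58 log2, 1.49-fold, SE 0.12, limma adjusted p = 0.0195). In both genes the groups did not overlap, and the KO-labelled arrays varied more than the WT arrays, with SDs of 0.18 against 0.07 for Pappa and 0.30 against 0.04 for Stc1.

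The membrane metalloprotease gene Adam9 was higher by 0.35 log2 (SE 0.058, limma adjusted p = 0.00594), and the secreted metalloprotease gene Adamts1 was lower by a difference of −0.66 (SE 0.17, limma adjusted p = 0.0398). Values that did not pass included Adam12 (0.32, adjusted p = 0.0791), Htra1 (0.18, 0.107) and Mmp7 (−1.11, 0.253). Without single arrays the calls were lost for Pappa (KO-labelled array 4 or WT array 2, 3 or 4, limma adjusted p up to 0.0822), Stc1 (KO-labelled array 3 or 4 or WT array 3, up to 0.0587) and Adamts1 (each array except KO-labelled array 1, up to 0.0971), and held for Adam9 in each case. Without KO-labelled arrays 3 and 4 together the Stc1 difference was 0.35 (limma adjusted p = 0.109) and the Pappa difference −0.24 (0.135), neither of them called. The Adamts1 call was also lost without either pair of KO-labelled arrays (limma adjusted p up to 0.121) and with trended robust eBayes (0.0570).

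**Figure D4:**
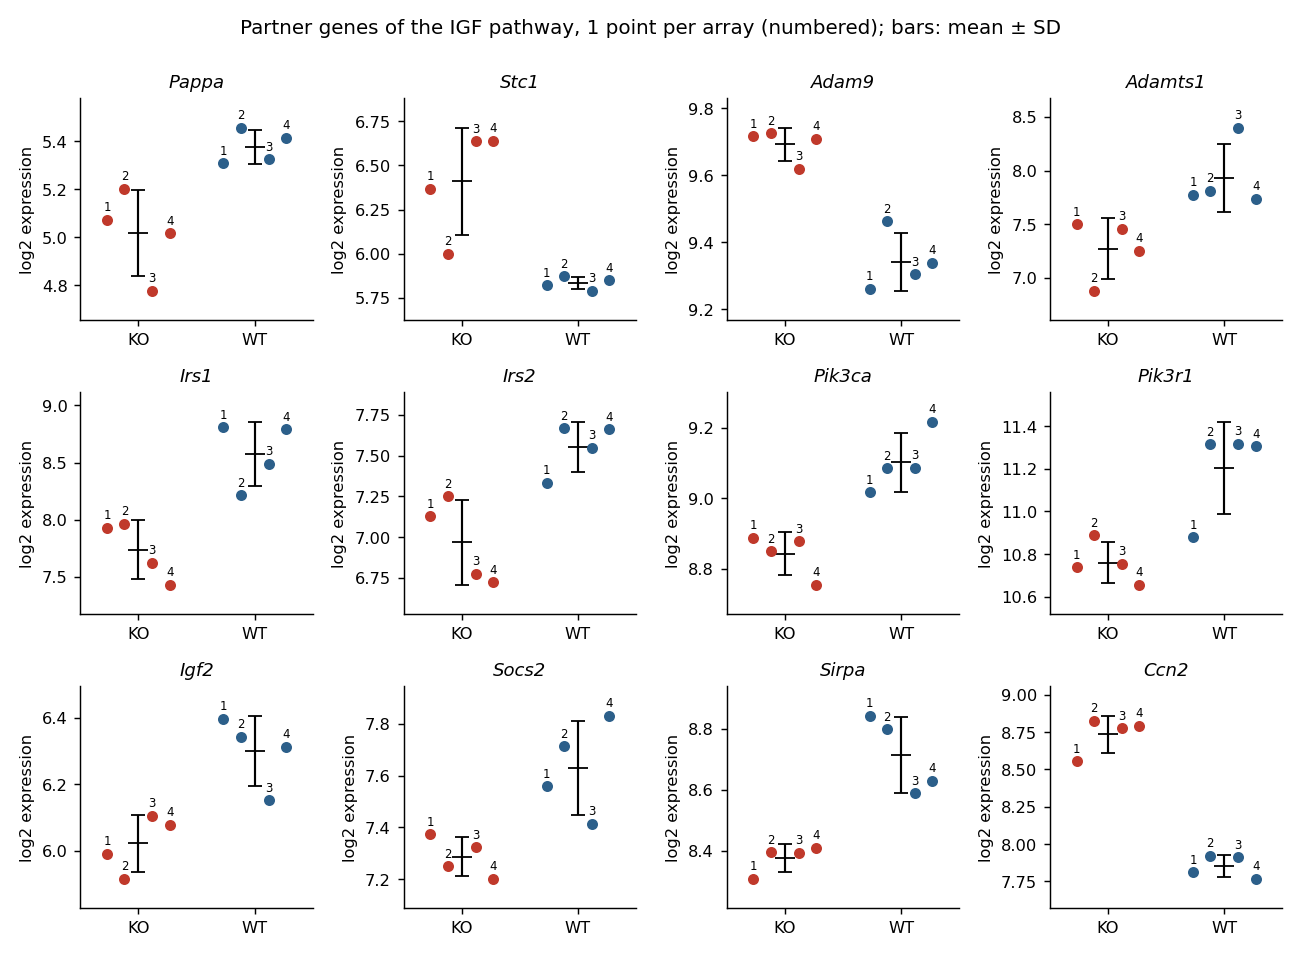
Log2 expression (vertical axis, its own scale in each panel) of 12 partner genes in the 4 KO-labelled arrays (left, red) and the 4 WT arrays (right, blue), numbered by replicate, with bars for the mean ± SD. Pappa, Adamts1, Irs1, Irs2, Pik3ca, Pik3r1, Igf2, Socs2 and Sirpa have lower means and Stc1, Adam9 and Ccn2 higher means in the KO-labelled arrays, and Pik3r1 is the panel where the groups overlap, through WT array 1.

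IGFBP-related proteins share a domain with the binding proteins. Of 10 measured genes 3 were higher and 0 lower, beside 3.81% and 3.59% of all rows tested. The list's median was 0.30 log2 beside −0.01 over all rows. Ccn2, which encodes connective tissue growth factor, read 8.55, 8.83, 8.78 and 8.79 in the KO-labelled arrays, against 7.81, 7.92, 7.91 and 7.77 in WT (0.88 log2, 1.84-fold, SE 0.071, limma adjusted p = 0.000105). Its relative Ccn5, secreted by adipose precursor cells, was higher by 0.41 (SE 0.056, limma adjusted p = 0.0022), and Crim1, a membrane protein that binds growth factors, by 0.31 (SE 0.061, limma adjusted p = 0.0126). The Crim1 call was lost without KO-labelled arrays 1 and 2 (0.27, limma adjusted p = 0.0585). Ccn3 (0.50, adjusted p = 0.0969), the endothelial proteoglycan gene Esm1 (0.44, 0.106) and Ccn1 (0.29, 0.285) did not pass.

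The list for the growth hormone receptor and STAT5 arm holds genes that carry the signal and genes that inhibit it. Among its 12 measured genes 2 were lower and 0 higher (median −0.10 log2), beside 3.59% and 3.81% of all rows tested. A link to the Igf1 decrease was not tested. Socs2, a feedback inhibitor that growth hormone induces, read 7.37, 7.25, 7.32 and 7.20 in the KO-labelled arrays, against 7.56, 7.71, 7.41 and 7.83 in WT (−0.34 log2, SE 0.087, limma adjusted p = 0.0405). A second, dimmer Socs2 row did not pass (−0.15, adjusted p = 0.323). Where in the genome each row reads is not given, so the brighter row may read a copy elsewhere. The call of the brighter row was lost without any single array except WT array 3 (limma adjusted p up to 0.112), without KO-labelled arrays 1 and 2 (0.0906) or 3 and 4 (0.196), with median centring (0.0565) and with the replicate block (0.0871). Sirpa, a membrane protein that recruits the phosphatase SHP2, was lower by a difference of −0.34 (SE 0.067, limma adjusted p = 0.0133), a call lost without KO-labelled arrays 1 and 2 (0.0626) or 3 and 4 (0.0698). The receptor gene Ghr itself was at 0.17 (adjusted p = 0.145), the transcription factor gene Stat5a at −0.17 (0.0598) and the kinase gene Jak2 at −0.10 (0.338).

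Downstream of the receptor, 5 of 24 measured genes were lower and 0 higher (median −0.05 log2), beside 3.59% and 3.81% of all rows tested. Irs1, the adaptor that both the IGF1 and insulin receptors phosphorylate, read 7.93, 7.97, 7.62 and 7.43 in the KO-labelled arrays, against 8.81, 8.22, 8.49 and 8.79 in WT (−0.84 log2, 44.1% lower, SE 0.15, limma adjusted p = 0.00858). Its partner Irs2 read 7.13, 7.25, 6.77 and 6.72, against 7.33, 7.67, 7.55 and 7.66 in WT (−0.58 log2, 33.3% lower, SE 0.12, limma adjusted p = 0.0178). In both genes every KO-labelled array lay below every WT array, and KO-labelled arrays 3 and 4 were the lowest.

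The PI3 kinase subunit genes Pik3r1 (regulatory) and Pik3ca (catalytic) were lower too, with differences of −0.45 (SE 0.10, limma adjusted p = 0.0243) and −0.26 (SE 0.059, limma adjusted p = 0.0259), as was the receptor-binding inhibitor gene Grb14 (−0.33, SE 0.086, limma adjusted p = 0.0451). The groups overlapped for Pik3r1 and Grb14, where WT array 1 was the lowest WT array. Of the genes that did not pass, Pik3cb, another catalytic subunit, was at −0.38 (adjusted p = 0.0637), the growth inhibitor gene Tsc1 at −0.22 (0.0913) and the adipocyte adaptor gene Irs3 at 0.25 (0.103). The Irs1 call held without each single array but not without KO-labelled arrays 3 and 4 together (−0.63, limma adjusted p = 0.0754), and calls were lost for Irs2 without KO-labelled array 4 or WT array 2 or 4 (up to 0.0555), for Pik3r1 without KO-labelled array 1, 3 or 4 or WT array 2, 3 or 4 (up to 0.0749), for Pik3ca without KO-labelled array 2 or 4 or WT array 2, 3 or 4 (up to 0.0766) and for Grb14 without any array except WT array 1 (up to 0.116). Without KO-labelled arrays 3 and 4 the calls of Irs2 (−0.36, limma adjusted p = 0.108), Pik3r1 (−0.39, 0.166), Pik3ca (−0.23, 0.139) and Grb14 (−0.30, 0.176) were lost too, and those of Pik3ca (0.0558) and Grb14 (0.10) also without arrays 1 and 2. With the replicate block neither Pik3ca (limma adjusted p = 0.0826) nor Grb14 (0.0858) was called, and the Grb14 call was lost under quantile normalization (0.0598), median centring (0.0681) and with all rows tested (0.0515).

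**Figure D5:**
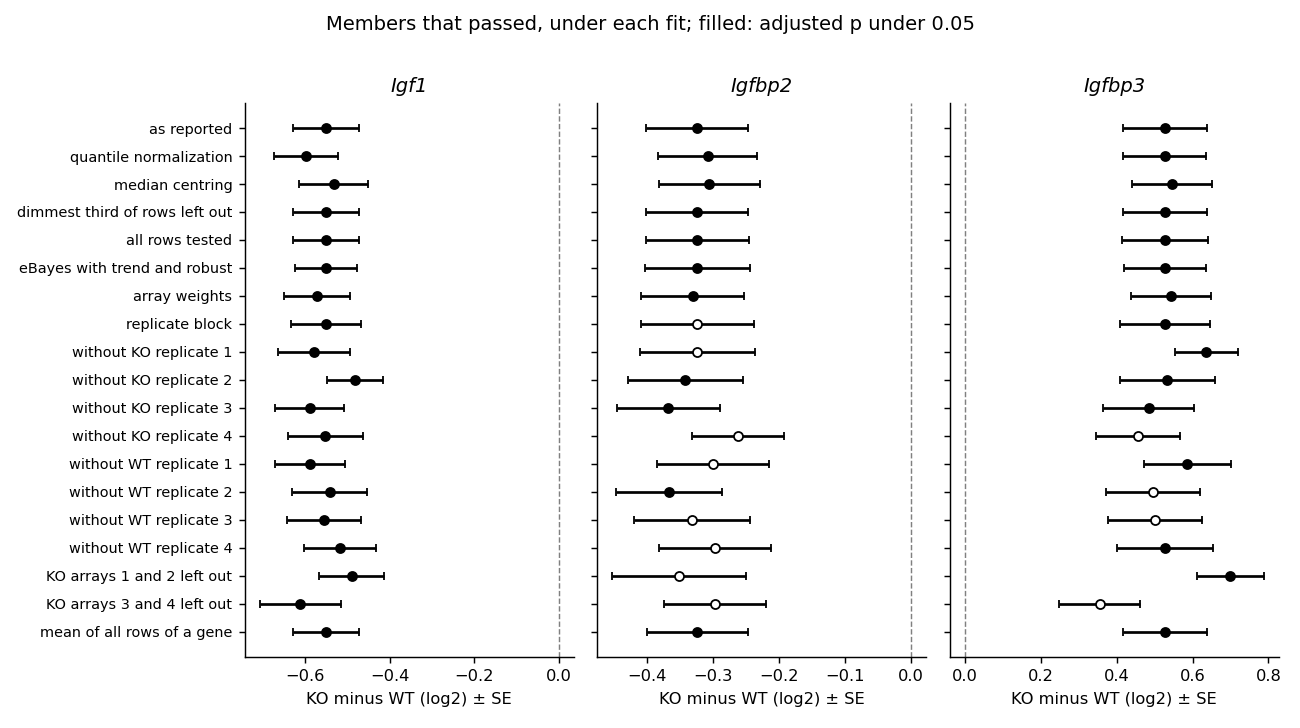
Difference of KO-labelled minus WT means (horizontal axis, log2, ± SE) of the 3 members that passed, under each way of fitting the data (rows), with filled points for an adjusted p under 0.05. Igf1 is filled in every row, while Igfbp2 and Igfbp3 are open in several.

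Some markers of cell types that make IGF1 or its binding proteins differed between the groups, and their part in the results above was not tested. Over all rows tested 3.81% passed as higher and 3.59% as lower, the shares to set beside each marker list here and below. Among 11 measured progenitor and fibroblast markers 5 were higher and 0 lower, and 9 of the 11 lay above 0, with a median of 0.37 log2. For 6 of the 11 every KO-labelled array lay above every WT array, beside 7.18% of all rows. Linear signals summed over the list were 7520 to 8155 in the KO-labelled arrays and 6755 to 7870 in WT, which overlapped. Dcn, the list's brightest gene, weighs most in that sum and was at −0.14 log2. Of 10 endothelial markers 3 were higher and 0 lower, with sums of 4493 to 5002 in the KO-labelled arrays and 3875 to 4209 in WT, which did not overlap, while Igfbp7 was at −0.20. Smooth muscle and pericyte markers (2 higher and 1 lower of 9) summed to 3245 to 4482 in the KO-labelled arrays and 2389 to 2844 in WT, without overlap. Acta2 (0.89 log2) and Rgs5 (0.66 log2), named after their values were seen, were the 2 higher genes and Tagln (−0.29) the lower one, while 5 of the 9 markers lay below 0 and the list's median was −0.01 log2.

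The macrophage, mesothelial and adipocyte lists also overlapped between the groups in their sums. Macrophage markers (0 higher and 1 lower of 10) summed to 3301 to 4045 in the KO-labelled arrays and 2732 to 3646 in WT, and mesothelial markers (1 higher and 0 lower of 9) to 2571 to 2962 and, in WT, 2717 to 3248. Adipocyte markers (2 higher and 0 lower of 11) summed to 41896 to 43334 in the KO-labelled arrays and 39847 to 43203 in WT. No lymphocyte, epididymal or hepatocyte marker passed, 0 of 7, 0 of 8 and 0 of 6, and the brightest value of the epididymal list was 5.20 log2.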

How the data were processed

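The authors deposited log2 expression values, 1 per array row and sample. The values ran from 2.09 to 13.4, which is why they were taken as log2. Per the submitters' processing notes, affy was used. How the authors corrected background, normalized and summarized is not given in the sources used here. The platform annotation gave 1 gene symbol to 20748 of 23346 rows, and these were tested, with no filter on dim rows, with R 4.3.3 and its limma package 3.58.1 (lmFit, eBayes, KO-labelled minus WT, two-sided, Benjamini-Hochberg adjustment over all rows tested, called under 0.05). SEs and 95% intervals come from that moderated fit. A gene in a partner or marker list was read from its brightest row, and older symbols were matched through the synonyms of the GRCm38.p6 gene table. No 2 arrays held identical values, and their number, 4 per group, limits the precision. The fit was tested on simulated data. The members, partner lists, marker lists and alternatives were chosen with earlier results of these data known. Named were all members, every partner gene that passed and up to 3 others per list with the smallest p. Alternatives changed the normalization (quantile, median centring), the rows tested (without the dimmest 33.3%, or every row), the model (trended robust eBayes, array weights, a replicate block), the arrays used, the row of a gene (mean of its rows) or the call (1.5-fold minimum, adjusted p under 0.10).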

Additional observations from a re-analysis of the deposited data

Results flagged for a closer look

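In 14 of 144 sets of 4 arrays (the member and partner genes in each group), 9.72%, a single array stood far from the other 3, by Dixon's criterion for the gap over the range. Chance gives this in about 1 in 20 sets, and genes of 1 array are not independent, so single cases mean little. None of the 9 members was among them. In the KO-labelled group the arrays that stood apart were array 1 for Ctsd (11.46) and Sirpa (8.31) and array 3 for Adam9 (9.62), Ghr (12.42), Ptpn1 (7.27), Shc1 (7.33) and Map2k1 (7.41). In the WT group they were array 1 for Cish (7.95) and Pik3r1 (10.88), array 2 for Grb10 (7.69), array 3 for Igf2r (7.50), Insrr (4.70) and Adamts1 (8.40), and array 4 for Socs3 (6.52). Cish, a gene that growth hormone induces through STAT5, had the widest gap, since the next highest WT array was at 5.78.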

How the results depend on the processing

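Over 24 genes (the members and the partner genes that passed) and 455 pairs of a gene and an alternative, 361 kept their side of the threshold, 88 lost a call, 6 gained one and 0 changed direction. Part of this was fixed in advance. The 0.10 rule reuses the main fit and cannot lose a call, and the mean of rows changed the difference of Socs2 only. The changed row sets, trended robust eBayes and the replicate block left each difference as it was, so no direction could change there. The 3 called members became 1 to 4 with single arrays left out (1 without KO-labelled array 4 or WT array 3), 1 without KO-labelled arrays 3 and 4, 0 with a 1.5-fold minimum and 5 at an adjusted p under 0.10. Under quantile normalization they became 4, with Igfbp7 called too. The 1536 called rows became 913 to 1418 with single arrays left out (913, 972 and 1004 without KO-labelled array 4, WT array 3 or WT array 4), 701 without KO-labelled arrays 3 and 4, 326 with the fold minimum and 2552 at 0.10. For other ligands, receptors and carriers the 1 call became 0 to 1 with single arrays left out, 0 with the replicate block or fold minimum and 2 with dim rows left out or at 0.10. For proteases and inhibitors 4 became 1 to 4 with single arrays left out (1 or 2 without KO-labelled array 3 or 4 or WT array 2, 3 or 4) and 1 without KO-labelled arrays 3 and 4 or with the fold minimum. For IGFBP-related proteins 3 became 3 to 4, and 1 with the fold minimum, and Crim1 lost its call without KO-labelled arrays 1 and 2. For the growth hormone arm 2 became 1 to 2 with single arrays left out (1 without any array but WT array 3), 4 with quantile normalization, 1 with median centring, the replicate block or the mean of a gene's rows, and 0 without KO-labelled arrays 1 and 2, without 3 and 4, or with the fold minimum. For receptor signalling 5 became 1 to 5 with single arrays left out (1 to 3 without KO-labelled array 1 or 4 or WT array 2, 3 or 4), 3 without KO-labelled arrays 1 and 2, 1 without arrays 3 and 4 and 1 with the fold minimum. The cause was not tested, apart from fewer arrays or a stricter rule by construction. Replicate numbers did not pair the arrays, with correlations of same-numbered deviations of −0.067 to 0.134, and with the replicate block 2 members and 1105 rows were called and Igfbp2 was not (limma adjusted p = 0.0763). Without detection calls or scanner signals, no background bound could be set for dim rows such as Igfbp1 or Pappa.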

Other observations

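Mmp7, a matrix protease of epithelia, had the difference of largest size in the partner lists and did not pass. It read 4.56, 4.85, 4.98 and 4.69 log2 in the KO-labelled arrays, against 7.76, 6.01, 4.64 and 5.13 in the WT arrays, with WT array 1 far above the rest. In the same WT array 1 the keratin genes Krt8 and Krt18, from the mesothelial list and chosen after their values were seen, read 8.04 and 7.32, against at most 7.09 and 6.71 in the other WT arrays. Of the rest of that list, Krt19 was also highest there (7.76, against at most 7.43). Upk3b (10.19 against at most 10.18), Upk1b (8.93 against 8.86), Lrrn4 (8.75 against 8.67) and Wt1 (7.90 against 7.85) were close to another WT array. Msln (7.63 against 7.77) and Bnc1 (6.47 against 6.75) were lower there than in WT array 2.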
